A study of Mus musculus with 6 samples.

Results

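Described here are 10 stress- and signal-responsive genes of muscle cells, measured by RNA-seq after depletion of SENP7, a protease that takes the small modifier SUMO off proteins. They are the AP-1 genes Fos, Fosl1, Fosl2, Jun, Junb and Atf3, the zinc finger factor gene Egr1, and the growth arrest genes Gadd45a, Gadd45b and Gadd45g. The genes were taken by name from the authors' deposited table of 55401 genes, and all 10 were found. The cells were C2C12 myotubes, multinucleate muscle cells grown from a clonal mouse myoblast line, kept in DMEM with 2% horse serum. In the control group they received siRNA against GL2, a luciferase absent from mouse cells, and in the other group siRNA against SENP7, each at 100 pmol for 3 days. Each group had 3 libraries, which the submitters call biological replicates of this single line, with no other genotype or agent named. With 1 siRNA label per group, effects of the siRNA itself and of SENP7 loss cannot be told apart. Values below are normalized read counts, which are reads per gene scaled for library depth, given as the mean and its SD over the 3 libraries of a group (n = 3).

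Immediate early genes are switched on within minutes of a growth or stress signal, before any new protein is made, mostly through MAP kinases and the factor SRF. FOS and JUN proteins pair through leucine zippers to form AP-1, which binds target promoters and enhancers, and EGR1 binds GC-rich sites. The GADD45 proteins are small partners of stress kinases and cell cycle proteins, and Gadd45a in particular is known to be induced in muscle that has lost its nerve. SUMO attached to transcription factors or to chromatin proteins often lowers transcription, and proteases of the SENP family reverse it.

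Promoter sequence could be matched for 8 of the 10 genes in RefSeq, as windows from 250 bases before to 50 after the start on GRCm38.p6. The 250 bases before the start are printed for Fos and Jun, whose transcripts rose, and for Gadd45a and Gadd45g, of which the first fell and the second did not pass the test. Each runs 5′ to 3′ along its gene, plus strand for Fos and Gadd45g and minus strand for Jun and Gadd45a, with motif matches in capitals.
Fos, chr12:85473640-85473889: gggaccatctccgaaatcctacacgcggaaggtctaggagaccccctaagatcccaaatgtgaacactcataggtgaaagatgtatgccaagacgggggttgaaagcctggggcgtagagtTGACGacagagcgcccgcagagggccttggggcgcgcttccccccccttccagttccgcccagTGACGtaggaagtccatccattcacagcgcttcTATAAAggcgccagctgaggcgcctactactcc
Jun, chr4:95052223-95052472: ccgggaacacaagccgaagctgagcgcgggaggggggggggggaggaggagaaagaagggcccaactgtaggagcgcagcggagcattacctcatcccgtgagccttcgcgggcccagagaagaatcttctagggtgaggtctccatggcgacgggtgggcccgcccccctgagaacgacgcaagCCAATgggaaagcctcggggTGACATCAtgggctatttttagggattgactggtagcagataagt
Gadd45a, chr6:67037408-67037657: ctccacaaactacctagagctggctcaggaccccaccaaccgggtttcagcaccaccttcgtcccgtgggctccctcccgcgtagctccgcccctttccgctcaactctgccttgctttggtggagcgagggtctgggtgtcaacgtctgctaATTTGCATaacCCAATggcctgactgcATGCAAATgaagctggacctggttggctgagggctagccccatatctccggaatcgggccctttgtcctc
Gadd45g, chr13:51846425-51846674: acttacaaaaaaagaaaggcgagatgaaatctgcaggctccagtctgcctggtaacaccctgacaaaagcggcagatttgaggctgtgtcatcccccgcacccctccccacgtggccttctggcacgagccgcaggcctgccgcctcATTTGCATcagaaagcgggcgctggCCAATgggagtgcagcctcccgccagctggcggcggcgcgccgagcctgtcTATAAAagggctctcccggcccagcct
The capitals in Fos mark 2 copies of TGACG, the core of the cAMP response element, at 129 and 66 bases before the start, and the TATA box TATAAA at 33 bases. In Jun they mark a CCAAT box at 65 bases and TGACATCA, a site shared by AP-1 and cAMP response factors, at 45 bases. Gadd45a has the octamer ATTTGCAT at 97 bases and again on the opposite strand, where it reads ATGCAAAT, at 70 bases, with a CCAAT box between them at 86 bases. Gadd45g has 1 octamer at 103 bases, a CCAAT box at 78 bases and a TATA box at 27 bases.

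Both strands of each 300-base window were searched for 8 motifs. The octamer was held by 2 of the 8 windows and by 1.74% of 32851 windows of all genes. TGACG was held by 3 (Fos, Junb and Atf3) against 20.8%, TGACATCA by 1 against 3.62%, TATAAA by 4 against 13.6% and CCAAT by 6 against 37.4%. These counts include matches after the start, namely TATAAA in Junb at base 1 and CCAAT in Atf3 at base 6, which do not lie where such boxes act. The EGR site GCGNGGGCG was held by 2 (Fosl2 and Gadd45b) against 5.55%. Neither TGANTCA, the classical AP-1 site, nor the CArG box bound by SRF had a match in the 8 windows. Of all windows, 7.81% held the former and 1.63% the latter. Fosl1 and Egr1 had no window, and sequence farther from the starts was not searched for any gene. The lack of a match in these windows therefore does not show that the genes lack such sites elsewhere. These windows were rich in G and C, at 58.7% for Fos and 61.0% for Gadd45a against a median of 52.7%. A match is a description of letters and says nothing of binding. The table's gene model of Gadd45a reaches to base 67037457, so that the last bases of its window lie within that model. The windows of Fosl2 (32136222 to 32136521) and Atf3 (191183284 to 191183583) lie wholly inside their gene models, so their matches belong to starts within the models.

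The libraries held 25223218 to 30865945 reads assigned to genes, and 1 read was worth 0.887 to 1.11 normalized counts. Senp7 itself (chromosome 16, 56048338 to 56190012) was at 556.4, 616.4 and 648.8 in control replicates 1, 2 and 3 and at 275, 279.2 and 346.7 in the SENP7 siRNA replicates, a fall from 607.2 ± 46.9 to 300.3 ± 40.2 (log2 fold change -1.02 ± 0.11, SE, adjusted p = 0.000428). On the first principal component, with 64.4% of the variance, control replicate 3 lay at -19.1 against -36.7 and -33.3 for the other controls and 27.7 to 32.5 for the SENP7 siRNA libraries, so each result below was also computed without it. All 8 myotube markers were measured, with a summed level of 596800 to 632000 in control and 672200 to 749800 in SENP7 siRNA libraries, and 1 of them, Ckm, passed the test as higher. Of 8 markers of undifferentiated or dividing myoblasts, 3 were higher (Pax7, Id1 and Id3), with sums of 7542 to 10120 and 8531 to 9708. Over all genes tested, 10.2% were higher and 10.7% lower. Markers of macrophages (175.8 to 189.5 against 131.6 to 160.1, with Adgre1 at 0), endothelium (10.01 to 17.51 against 20.84 to 25.68) and fat cells (0 to 3.209 over all libraries) were low. Among them Cd14 passed the test as lower (log2 fold change -0.48) and Tek, from few reads, as higher (1.24). The neuron sum (1296 to 1951 against 630 to 912.1) came from Tubb3, which passed as lower (-1.09), with Rbfox3, Snap25 and Syt1 at 0. The part of these shifts in the results below was not tested, and in bulk RNA fewer cells of a type and less RNA per cell cannot be told apart.

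Among these genes, SENP7 siRNA libraries differed from control in both directions. Fos, Jun and Egr1 rose, by 1.83-fold, 1.33-fold and 1.19-fold, while Fosl1 fell 2.49-fold and Gadd45a fell 1.66-fold. Fosl2, Junb, Atf3, Gadd45b and Gadd45g did not pass the test. Thus 5 of 10 were called at an adjusted p below 0.05, where 20.9% of the 14668 genes tested were called (10.2% higher and 10.7% lower), and all 10 had passed the filter on low counts. The same 5 had no overlap between the groups, which held for 39.6% of the genes tested (19.3% with SENP7 siRNA higher, 20.4% with it lower). The median log2 fold change of the 10 was -0.12 and the median of its size 0.25, against 0.0 and 0.17 over all genes tested. In the authors' deposited table, where 9.26% of 27493 genes had an adjusted p below 0.05, the same 5 genes were below it, Egr1 with the highest value among them (0.00865).

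**Figure D1:**
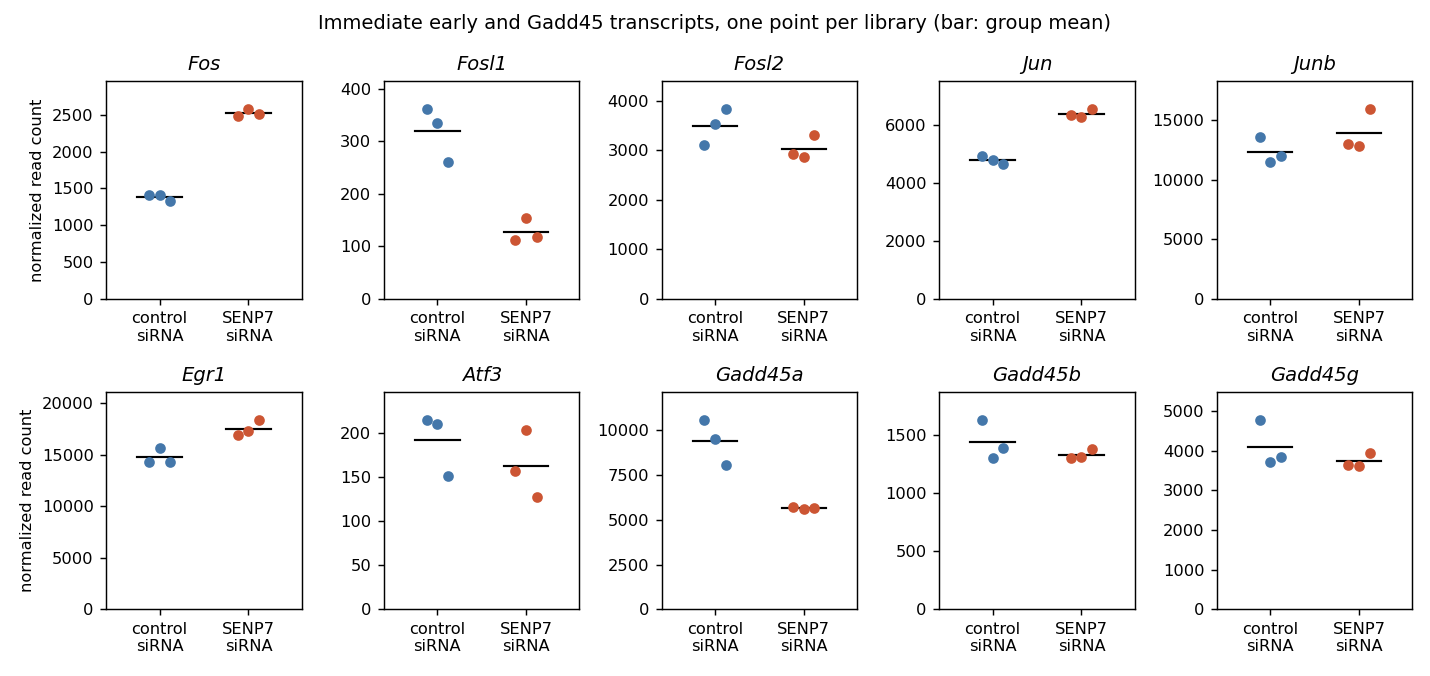
Normalized read count (vertical axes, from 0) of each gene in each of the 3 control siRNA and 3 SENP7 siRNA libraries, 1 point per library with a bar at the group mean. The groups are apart in Fos, Fosl1, Jun, Egr1 and Gadd45a and overlap in the other 5 panels.

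Among the FOS family, the 2 transcripts called went opposite ways. Fos, which encodes the founding FOS protein (ENSMUSG00000021250.13, chromosome 12, 85473890 to 85477273, plus strand), had normalized counts of 1411, 1413 and 1325 in control replicates 1, 2 and 3. With SENP7 siRNA they were 2493, 2576 and 2513. The SENP7 siRNA libraries were all far above the controls, and the values within each group lay close together. The mean went from 1383 ± 50.3 to 2527 ± 43.2, which is a log2 fold change of 0.87 ± 0.06 (SE, 95% interval 0.74 to 1.0, adjusted p = 3.27e-05). A larger rise was seen in 3.85% of the genes tested. The value stayed between 0.84 and 0.89 and the call held in all 15 alternative settings, and without control replicate 3 it was 0.84 (adjusted p = 1.56e-06; range across settings 1.55e-30 to 0.000744). No exon of another gene lies over those of Fos.

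Fosl1 encodes FRA1, a FOS relative that lacks the strong activation domain of FOS (ENSMUSG00000024912.6, chromosome 19, 5447547 to 5455946, plus strand). Its counts were 360.8, 334.9 and 260.7 in control replicates 1, 2 and 3 and 112.7, 153 and 118.4 in the SENP7 siRNA replicates. The lowest control, replicate 3, was still well above the highest SENP7 siRNA library. The mean went from 318.8 ± 52 to 128 ± 21.8, which is a log2 fold change of -1.31 ± 0.16 (SE, 95% interval -1.67 to -0.95, adjusted p = 0.00081), which 0.954% of the genes tested exceeded in the same direction. It ranged from -1.45 to -1.21 over the 15 settings, all of them past the threshold, and was -1.45 without control replicate 3 (adjusted p = 2.4e-05; range across settings 2.3e-11 to 0.00918).

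The reads of Fosl1 need care, because 57.2% of its exon bases also lie under exons of Ccdc85b on the opposite strand. Ccdc85b was at 534.2, 435 and 359.9 in control replicates 1, 2 and 3 and at 429.4, 426.8 and 366.6 in the SENP7 siRNA replicates, so its groups overlapped while those of Fosl1 did not. The library kit keeps the strand, and the setting used in the counting is not given in the sources used here. Among 440 genes lying wholly under exons of the opposite strand, 39.3% had a read, against 5.33% of 713 genes lying wholly under exons of the same strand. At least 60 reads over the 6 libraries were held by 4.55% and 0.14% of them. These shares do not settle how the reads of Fosl1 were counted.

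Fosl2 encodes FRA2, another FOS relative without that domain (chromosome 5, 32135801 to 32157842, plus strand). Its counts of 3097, 3531 and 3820 in control replicates 1, 2 and 3 overlapped with 2928, 2854 and 3299 in the SENP7 siRNA replicates. Its means were 3483 ± 364 and 3027 ± 238, and its log2 fold change of -0.2 ± 0.09 (SE, 95% interval -0.4 to 0.0, adjusted p = 0.146) did not pass. It did pass without control replicate 1, at -0.28 (adjusted p = 0.046), and the range over all settings was 0.0295 to 0.371.

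Because Fos and Fosl1 moved apart, the make-up of the family differed between the groups. The ratio of Fos to Fosl1 counts was 3.91, 4.22 and 5.08 in control replicates 1, 2 and 3 and 22.1, 16.8 and 21.2 in the SENP7 siRNA replicates. Per kb of exon, which allows genes of different length to be compared, the sum over Fos, Fosb, Fosl1 and Fosl2 was 1156 ± 26.3 in control and 1497 ± 30.2 in SENP7 siRNA libraries. Fos made up 50.8% ± 1.7 of this sum in control and 71.8% ± 1.3 in SENP7 siRNA libraries. The share of Fosl1 was 13.6% ± 2.2 and 4.2% ± 0.68, that of Fosl2 31.1% ± 3.2 and 20.9% ± 1.5, and that of Fosb 4.48% ± 0.7 and 3.11% ± 0.26. These ratios and shares are descriptions of the values above and were not tested again.

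**Figure D2:**
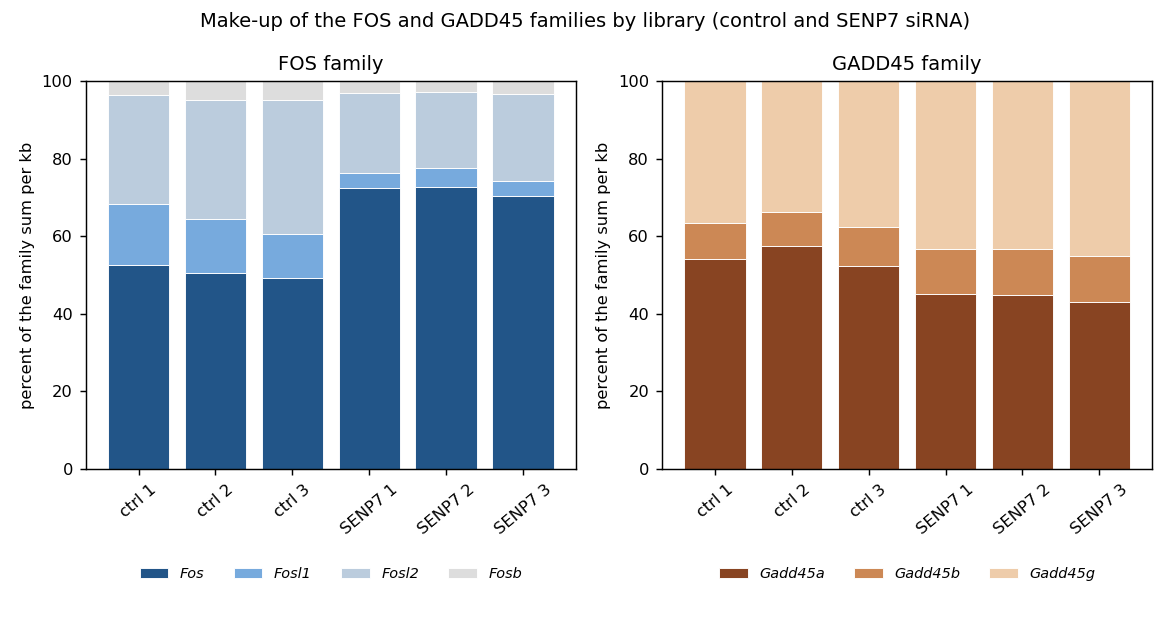
Stacked bars give the percent of the family's summed level per kb of exon (vertical axis, 0 to 100) that each FOS gene (left) or GADD45 gene (right) made up in each of the 6 libraries. The share of Fos is higher in each SENP7 siRNA library than in any control, and the share of Gadd45a is lower.

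Of the JUN genes, Jun rose and Junb did not pass. Jun, a gene of a single exon whose protein forms the strongest activating pairs with FOS (ENSMUSG00000052684.4, chromosome 4, 95049034 to 95052222, minus strand), had counts of 4919, 4794 and 4632 in control replicates 1, 2 and 3. With SENP7 siRNA they were 6323, 6263 and 6523. The lowest SENP7 siRNA library stood clear of the highest control, and both groups were narrow. The mean went from 4782 ± 144 to 6370 ± 136, which is a log2 fold change of 0.41 ± 0.06 (SE, 95% interval 0.29 to 0.54, adjusted p = 0.00143). The value was 0.39 to 0.47 over the 15 settings, each past the threshold, and 0.39 without control replicate 3 (adjusted p = 0.000423; range across settings 3.58e-09 to 0.0124). The antisense transcript Junos lies over 7.3% of the exon bases of Jun. It was at 25.32 ± 0.865 and 38.13 ± 9.24 normalized counts in the control and SENP7 siRNA groups, small numbers beside those of Jun, and did not pass the test.

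Junb, also of 1 exon, encodes a JUN protein that activates less than JUN at many sites (chromosome 8, 84976910 to 84978718, minus strand). It was at 13604, 11473 and 11977 in control replicates 1, 2 and 3 and at 12960, 12822 and 15892 in the SENP7 siRNA replicates. The groups overlapped, and SENP7 siRNA replicate 3 was the highest of all. The means were 12350 ± 1110 and 13890 ± 1730, and the log2 fold change of 0.17 ± 0.1 (SE, 95% interval -0.06 to 0.4, adjusted p = 0.287) leaves room for a change of up to 1.32-fold upward. The ratio of Jun to Junb counts was 0.362, 0.418 and 0.387 in control replicates 1, 2 and 3 and 0.488, 0.488 and 0.41 in the SENP7 siRNA replicates, so that control replicate 2 lay above SENP7 siRNA replicate 3. Jund, the third JUN gene, was nearly unread in the table, at 1.113 to 3.789 normalized counts, and was not tested. Of its exon bases 52.6% lie under exons of an opposite-strand gene, and the strand setting of the counting is unknown. Whether this overlap lowered the count of Jund was not tested, and the value may not stand for its expression. The ratio of Fos to Jun was 0.287, 0.295 and 0.286 in control and 0.394, 0.411 and 0.385 in SENP7 siRNA replicates 1, 2 and 3.

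Egr1, which encodes a zinc finger activator of growth factor and matrix genes (ENSMUSG00000038418.7, chromosome 18, 34859823 to 34864984, plus strand), rose by the smallest step of those called. Its counts were 14320, 15618 and 14320 in control replicates 1, 2 and 3 and 16926, 17261 and 18342 in the SENP7 siRNA replicates. The groups did not overlap, although control replicate 2 came near to SENP7 siRNA replicate 1. The mean went from 14750 ± 749 to 17510 ± 740, which is a log2 fold change of 0.25 ± 0.07 (SE, 95% interval 0.09 to 0.41, adjusted p = 0.0368), and 19.0% of the genes tested rose more. The call was lost without any 1 library except control replicate 3: adjusted p was 0.0948, 0.119 and 0.106 without SENP7 siRNA replicates 1, 2 and 3, and 0.0827 and 0.0635 without control replicates 1 and 2. Without control replicate 3 the log2 fold change was 0.23 (adjusted p = 0.0242; range across settings 0.00407 to 0.119).

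Atf3, a stress-induced factor that pairs with JUN proteins and often represses (chromosome 1, 191170296 to 191218039, minus strand), did not pass. It was at 214.7, 210.3 and 150.8 in control replicates 1, 2 and 3 and at 157, 203.3 and 127.9 in the SENP7 siRNA replicates. The groups overlapped widely, with the lowest control below SENP7 siRNA replicates 1 and 2. The means were 191.9 ± 35.7 and 162.7 ± 38, with a log2 fold change of -0.24 ± 0.19 (SE, 95% interval -0.68 to 0.19, adjusted p = 0.413). The interval reaches from 0.623 to 1.14 times the control level, the widest of the 10 genes.

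**Figure D3:**
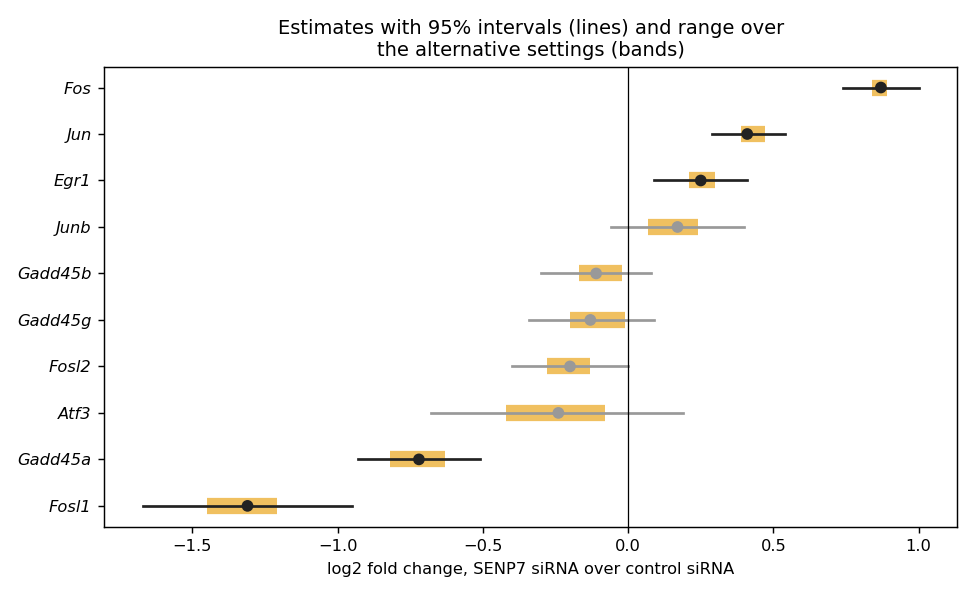
Log2 fold change between SENP7 and control siRNA, positive where SENP7 siRNA is higher (horizontal axis), for each gene, with points for the estimate, lines for the 95% interval and bands for the range over the 15 alternative settings. Black marks genes called at an adjusted p below 0.05 and grey the others, and neither the line nor the band of Fos, Jun, Egr1, Fosl1 and Gadd45a reaches 0.

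Of the 3 GADD45 genes, 1 changed. Gadd45a (ENSMUSG00000036390.8, chromosome 6, 67035096 to 67037457, minus strand), the family's founding member and a target of p53 and of ATF4, had counts of 10549, 9492 and 8038 in control replicates 1, 2 and 3. With SENP7 siRNA they were 5681, 5612 and 5662. The controls were spread out with replicate 3 lowest, and the SENP7 siRNA libraries were nearly equal and well below all of them. The mean went from 9360 ± 1260 to 5652 ± 35.6, which is a log2 fold change of -0.72 ± 0.09 (SE, 95% interval -0.93 to -0.51, adjusted p = 0.00117), and 3.71% of the genes tested fell more. The value was -0.82 to -0.63 over the 15 settings, each past the threshold, and -0.82 without control replicate 3 (adjusted p = 3.94e-06; range across settings 5.18e-11 to 0.0119). Exons of the opposite-strand gene E230016M11Rik lie over 19.1% of the exon bases of Gadd45a. That gene was at 37.05 ± 1.77 in control and 50.21 ± 6.6 in SENP7 siRNA libraries, small numbers beside the counts of Gadd45a, and did not pass the test.

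Gadd45b, which is induced by TGF-beta and NF-kappaB signals (chromosome 10, 80930073 to 80932204, plus strand), was at 1632, 1308 and 1391 in control replicates 1, 2 and 3. In the SENP7 siRNA replicates it was at 1306, 1313 and 1387. Apart from control replicate 1 all values lay close together. The means were 1444 ± 168 and 1335 ± 44.9, with a log2 fold change of -0.11 ± 0.08 (SE, 95% interval -0.3 to 0.08, adjusted p = 0.409).

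Gadd45g, which is induced by cytokines (chromosome 13, 51846678 to 51848468, plus strand), was at 4765, 3705 and 3826 in control replicates 1, 2 and 3. In the SENP7 siRNA replicates it was at 3634, 3612 and 3943. As in Gadd45b, control replicate 1 was the high value and the other 5 values lay close together. The means were 4099 ± 581 and 3730 ± 185, with a log2 fold change of -0.13 ± 0.1 (SE, 95% interval -0.34 to 0.09, adjusted p = 0.382).

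The balance of the family differed between the groups, and every control library had higher ratios of Gadd45a to the other members than any SENP7 siRNA library. The ratio of Gadd45a to Gadd45b counts was 6.46, 7.26 and 5.78 in control replicates 1, 2 and 3 and 4.35, 4.28 and 4.08 in the SENP7 siRNA replicates. That of Gadd45a to Gadd45g was 2.21, 2.56 and 2.1 against 1.56, 1.55 and 1.44. Per kb of exon the summed level of the family was 9709 ± 1230 in control and 7224 ± 193 in SENP7 siRNA libraries. Gadd45a made up 54.6% ± 2.6 of it in control and 44.4% ± 1.1 in SENP7 siRNA libraries, Gadd45g 36.0% ± 2.0 and 44.0% ± 1.0, and Gadd45b 9.38% ± 0.64 and 11.6% ± 0.11. With SENP7 siRNA, Gadd45a and Gadd45g were thus at about equal levels. Both ratios are descriptions, with no test of their own.

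Compared per kb of exon, the 10 genes spanned a wide range of levels. In control libraries Junb was highest at 6828 ± 616 normalized counts per kb, above 99.1% of the genes tested, followed by Gadd45a (5306 ± 715), Gadd45g (3494 ± 495) and Egr1 (3290 ± 167), of which the last pair lay within their SD. Jun (1499 ± 45.1), Gadd45b (908.6 ± 106), Fos (588 ± 21.4), Fosl2 (359.8 ± 37.6), Fosl1 (156.8 ± 25.6) and Atf3 (89.09 ± 16.6) followed, with Fos above 83.3% and Atf3 above 40.9% of the genes tested. These transcripts were therefore well detected in myotubes that had received no added stimulus named in the labels. With SENP7 siRNA the order of levels per kb was Junb (7679 ± 959), Egr1 (3905 ± 165), Gadd45a (3204 ± 20.2), Gadd45g (3179 ± 158), Jun (1997 ± 42.7), Fos (1075 ± 18.4), Gadd45b (840.3 ± 28.2), Fosl2 (312.7 ± 24.6), Atf3 (75.55 ± 17.6) and Fosl1 (62.97 ± 10.7). Gadd45a and Gadd45g lay within their SD there, as did Atf3 and Fosl1. Fos stood below Gadd45b in control and above it in SENP7 siRNA libraries.

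**Figure D4:**
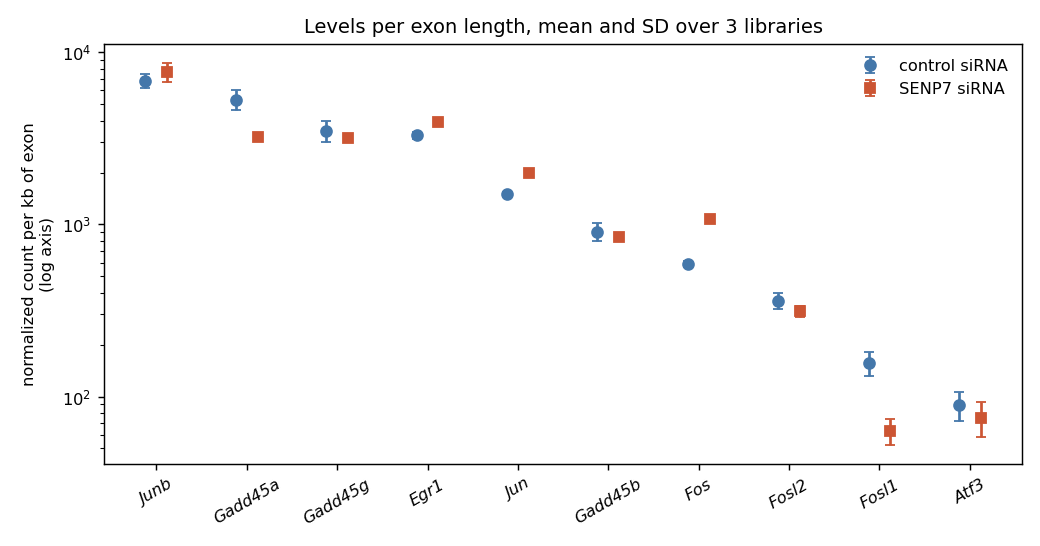
Normalized count per kb of exon (vertical log axis) of the 10 genes, ordered by the control level, with circles for control siRNA and squares for SENP7 siRNA, as means with SD over 3 libraries. Junb is highest in both groups, and Fos and Gadd45b change places.

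The genes also differed in how much they varied between libraries of a group. The coefficient of variation in control libraries was lowest in Jun (3.01%), Fos (3.64%) and Egr1 (5.08%). It was 9.02% to 11.6% in Junb, Fosl2 and Gadd45b and 13.5% to 18.6% in Gadd45a, Gadd45g, Fosl1 and Atf3. With SENP7 siRNA it was lowest in Gadd45a (0.63%, at 5246 to 6403 reads per library) and highest in Atf3 (23.4%, at 135 to 190 reads). Each value rests on 3 libraries and includes the noise of read counting, which is larger in genes with few reads and was not separated out. These values therefore describe the libraries and are not a measured property of the genes. Control replicate 1 was the highest control in 7 of the 10 genes and control replicate 3 the lowest in 5. In control replicate 1 the GADD45 genes lay above their group mean together, by 0.18 (Gadd45a), 0.18 (Gadd45b) and 0.23 (Gadd45g) on the log2 scale. In control replicate 3 every gene but Fosl2 lay below its group mean, by most in Atf3 (-0.33), Fosl1 (-0.28) and Gadd45a (-0.21).

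In structure these are compact genes. The median span of the 10 from start to end was 3286.5 bases, against 24446 bases for the 12723 protein-coding genes tested, and the median exon length was 2093.5 against 4519 bases. All 10 had at most 4 exons in any coding transcript, which held for 19.3% of the protein-coding genes. The 5 genes called and the 5 not called both included genes of 1 exon (Jun and Junb) and of 4 exons (Fos and Gadd45b, for example).

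Beyond the 10 genes, lists of related genes were counted in the same fit. Of 36 other immediate early genes 34 were tested, with 4 higher and 12 lower at a median log2 fold change of -0.17. Over all genes tested, 10.2% were higher and 10.7% lower. Zfp36, which encodes the mRNA decay protein tristetraprolin, rose from 840.8 ± 65.4 to 2166 ± 290 (log2 fold change 1.36 ± 0.10, SE, adjusted p = 6.25e-05). Egr3, a relative of Egr1, fell from 2938 ± 251 to 1678 ± 113 (-0.81 ± 0.08, adjusted p = 0.000292), as did Maff, a small MAF factor gene, from 777.7 ± 104 to 412.7 ± 31.6 (-0.91 ± 0.11, adjusted p = 0.000729). Egr1 and Egr3 thus moved in opposite directions, and Egr2 was at 75.2 ± 16.2 and 80.95 ± 11.7 and did not pass (adjusted p = 0.707). Myc, a growth regulator, fell from 1588 ± 219 to 1105 ± 57.3 (-0.51 ± 0.10, adjusted p = 0.00762). The nuclear receptor gene Nr4a1 rose from 1377 ± 113 to 1725 ± 166 (0.32 ± 0.09, adjusted p = 0.0284), a call lost without SENP7 siRNA replicates 2 or 3 or control replicates 1 or 2 (0.00176 to 0.123 over all settings). Fosb (323.9 ± 53.6 and 290.5 ± 27.5) and Ier2 (5418 ± 546 and 6223 ± 214) did not pass, although Ier2 did without control replicate 1. The higher genes numbered 2 without SENP7 siRNA replicate 2 and 1 without control replicate 2, the lower ones 7 without SENP7 siRNA replicate 1 or 2, and there were 6 higher and 16 lower without control replicate 3.

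Upstream of these genes stand the MAP kinases and the SRF cofactors. Of 26 genes of that list 24 were tested, with 2 higher and 3 lower at a median log2 fold change of -0.06, a share called close to the 20.9% of all genes tested. Mapk12, the p38 kinase enriched in muscle, rose from 1207 ± 120 to 2017 ± 59.9 (log2 fold change 0.74 ± 0.08, SE, adjusted p = 0.000369), while Mapk11, another p38 kinase gene, fell from 670 ± 3.99 to 394.7 ± 57.8 (-0.77 ± 0.11, adjusted p = 0.00151). Elk3, which encodes an SRF partner, fell from 2211 ± 238 to 1432 ± 19.8 (-0.62 ± 0.08, adjusted p = 0.00111). Srf was at 1819 ± 251 and 1721 ± 28.1 and did not pass (adjusted p = 0.647), but it did without control replicate 3 (adjusted p = 0.0254; range across settings 0.0254 to 0.964). The higher genes numbered 1 without any 1 library except control replicate 3, and 9 were lower without that library.

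Of 11 MAP kinase phosphatase genes, which end kinase signals, 3 were lower and 0 higher at a median log2 fold change of -0.07. Over all genes tested, 10.7% were lower and 10.2% higher. Dusp4 fell from 1310 ± 80.9 to 766.7 ± 68.5 (-0.77 ± 0.08, SE, adjusted p = 0.000382), Dusp9 from 98.11 ± 13.7 to 49.95 ± 6.64 (-0.96 ± 0.17, adjusted p = 0.00495) and Dusp16 from 820.1 ± 54.5 to 658.8 ± 19.0 (-0.31 ± 0.07, adjusted p = 0.015). The Dusp16 call was lost without any 1 SENP7 siRNA library or control replicate 2 (0.00241 to 0.0717 over all settings). Dusp1, itself an immediate early gene, was at 1943 ± 144 and 1943 ± 75.9.

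Genes known as AP-1 targets were mostly lower where they changed, in a list that, like the others, was chosen with earlier results of these data known. Of 18 on the list 14 were tested, with 8 lower and 1 higher, where 10.7% and 10.2% of all genes tested were. The median log2 fold change was -0.59, against 0.0 over all genes tested. Ccnd1, the cyclin D1 gene, fell from 1282 ± 69.4 to 564.6 ± 4.35 (-1.18 ± 0.06, SE, adjusted p = 1.85e-05). The metalloprotease inhibitor gene Timp1 fell from 5526 ± 991 to 2877 ± 35.1 (-0.93 ± 0.11, adjusted p = 0.000693) and Spp1, the osteopontin gene, from 22610 ± 5190 to 8748 ± 1510 (-1.36 ± 0.17, adjusted p = 0.000941). The higher gene was the chemokine gene Ccl2 (1.09 ± 0.18, adjusted p = 0.00379), named after its value was seen. The lower genes numbered 8 to 11 with any 1 library left out. Ccnd1, Timp1 and Spp1 were named for the smallest adjusted p among the called genes of the list, in either direction. A link of the list to Fos, Fosl1 or Jun was not tested.

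Among 9 genes of EGR1 corepressors and targets, 8 were tested, with 4 lower and 1 higher at a median of -0.19. Of all genes tested 20.9% were called. Nab2, a corepressor gene that EGR1 itself induces, fell from 3597 ± 246 to 2774 ± 108 (-0.37 ± 0.07, SE, adjusted p = 0.00525) and Vegfa, which encodes a vessel growth factor, from 7252 ± 1030 to 4706 ± 124 (-0.61 ± 0.10, adjusted p = 0.00328). F3, the tissue factor gene, rose from 80.16 ± 3.09 to 160 ± 25.1 (0.98 ± 0.14, adjusted p = 0.00195). Of 23 genes of bZIP partners, factors that pair with AP-1 proteins through the same zipper, 20 were tested. Of these 2 were higher and 2 lower at a median of -0.01, a share called close to the 20.9% of all genes tested. Maf rose from 908.9 ± 82.5 to 1379 ± 20.1 (0.60 ± 0.07, adjusted p = 0.000876), Nfe2l2 (-0.27 ± 0.06, adjusted p = 0.0154) and Nfil3 (-0.28 ± 0.07, adjusted p = 0.0216) were lower, and Atf4 did not pass (-0.13 ± 0.09, adjusted p = 0.336). Neither lower call of the bZIP list held without SENP7 siRNA replicate 1 or 2, 1 held without control replicate 1 or 2, and 1 higher gene was left without SENP7 siRNA replicate 1 or control replicate 2.

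Among 13 genes of GADD45 partners, 2 were higher and 2 lower at a median of -0.04, where 20.9% of all genes tested were called. Map3k4, the stress kinase that GADD45 proteins bind and activate, rose from 1705 ± 71.6 to 2117 ± 14.8 (log2 fold change 0.31 ± 0.06, SE, adjusted p = 0.00524), in the direction opposite to Gadd45a. Cdkn1a, which encodes the cell cycle inhibitor p21, fell from 44660 ± 5770 to 32070 ± 4040 (-0.48 ± 0.12, adjusted p = 0.0236), a call lost without SENP7 siRNA replicates 2 or 3 or control replicate 2 (0.000694 to 0.0707 over all settings). Gadd45gip1 rose by a small step (0.28 ± 0.07, adjusted p = 0.0245), and that call was lost without any 1 SENP7 siRNA library or control replicate 2. The partners called lower were 0 without SENP7 siRNA replicates 2 or 3 or control replicate 2 and 1 without SENP7 siRNA replicate 1 or control replicate 1. Those called higher were 1 without any 1 SENP7 siRNA library or control replicate 2 and 4 without control replicate 3.

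Gadd45a is a textbook denervation gene, so 13 genes of the denervation response were counted beside it. Of these 12 were tested, with 1 higher and 1 lower at a median of -0.06, a share called no higher than the 20.9% of all genes tested. Hdac4, the deacetylase known to act upstream of Gadd45a in denervated muscle, rose from 862.2 ± 73.6 to 1089 ± 98.6 (log2 fold change 0.34 ± 0.09, SE, adjusted p = 0.0269), where Gadd45a fell. Its call was lost without any 1 library except control replicate 3 (0.0028 to 0.0866 over all settings). The lower gene was Cdkn1a, given above, which the list shares with the partners. The lower genes were 0 without SENP7 siRNA replicates 2 or 3 or control replicate 2, and 2 without control replicate 1 or 3.

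**Figure D5:**
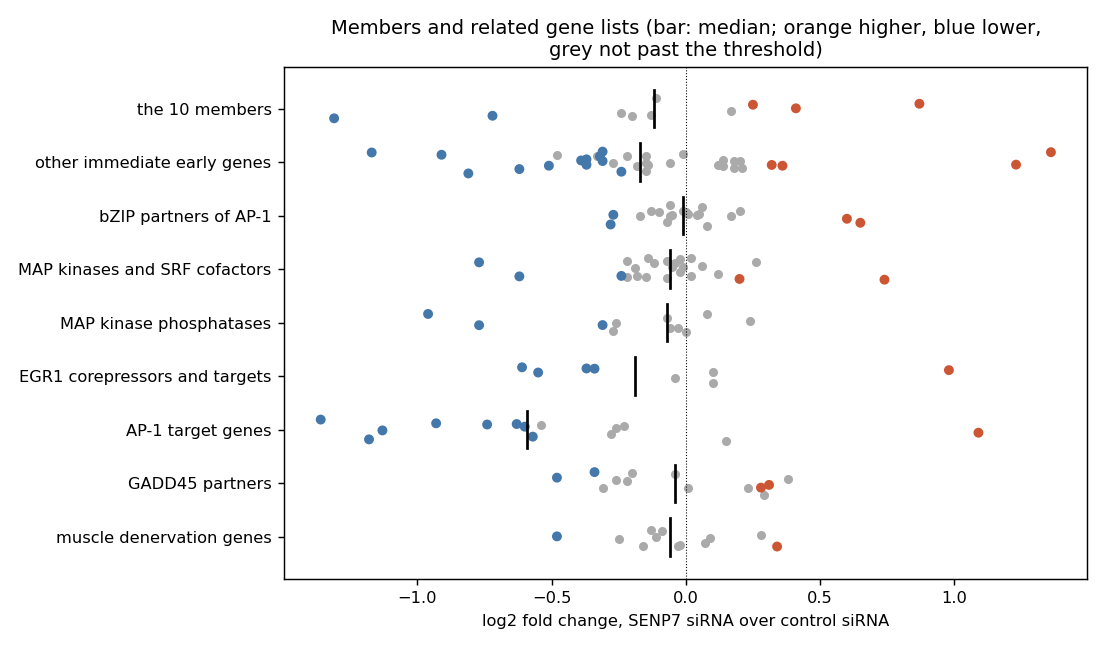
Log2 fold change between SENP7 and control siRNA, positive where SENP7 siRNA is higher (horizontal axis), of each tested gene in the 10 genes described and in 8 lists of related genes (vertical positions, jittered), with orange points called higher, blue called lower and grey not called. Black bars mark list medians, and that of the AP-1 targets lies farthest from 0, at -0.59. The lists were chosen with earlier results of these data known.

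For the 5 genes called, the transcripts with the most similar pattern over the 6 libraries were sought among 11175 tested genes, by the root mean square difference of log2 values after centring each gene on its own mean. Nearest to Fos was Macrod1 (0.054), at 946.4, 844.4 and 817.1 in control replicates 1, 2 and 3 and 1629, 1629 and 1585 in the SENP7 siRNA replicates, then Pkd2l2 (0.071) and Gtdc1 (0.074). Nearest to Fosl1 were Nr4a2 (0.1), Aqp1 (0.11) and Plaur (0.14). Nr4a2 was at 291.3, 260.3 and 180.9 in control replicates 1, 2 and 3 and 94.05, 120.9 and 103.3 in the SENP7 siRNA replicates, with control replicate 3 lowest among controls as in Fosl1. Nr4a2 belongs to the list of other immediate early genes and Plaur to that of AP-1 targets. Nearest to Gadd45a was Actg1 (0.025), at 26250, 22774 and 19203 in control and 13344, 13531 and 13627 in SENP7 siRNA replicates 1, 2 and 3, then Fam114a2 (0.034) and Sh3bgrl2 (0.045). Both Gadd45a and Actg1 had scattered controls and nearly equal SENP7 siRNA libraries. Nearest to Jun were Pik3r3 (0.027), Aimp2 (0.028) and Mettl26 (0.031), and nearest to Egr1 were Adgrg6 (0.023), Trp53inp2 (0.03) and Dlat (0.031). The measure rests on 6 libraries that share their depth and group differences, and it is given as a description.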

How the data were processed

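RNA was measured in 3 control siRNA and 3 SENP7 siRNA libraries (poly(A) selection, directional kit, 1 pooled paired-end run, per the labels' protocols). Named per the submitters' processing notes are STAR 2.6.1d, Trim Galore 0.6.4, featureCounts 1.6.4, bcl2fastq and DESeq2, with the build GRCm38.p6. A strand setting for the counting is not given in the sources used here, nor is an annotation release. The authors' deposited table of 55401 genes held a normalized signal per library, which from the values was a read count divided by 1 factor per library. It also held, per the file headers, the authors' log2 fold change, a Wald score and p-values, of which the fold changes and adjusted p-values of the 10 genes were used. Of 987 blank names, 727 were filled from GENCODE M21, whose coordinates were the same for all 54349 shared genes. Older symbols (Cyr61, Ctgf, Mkl1 and Mkl2) were matched to Ccn1, Ccn2, Mrtfa and Mrtfb.

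limma 3.58.1 (R 4.3.3) with a mean-variance trend and robust empirical Bayes was fitted on log2(normalized count + 1), which understates changes of low genes, for genes at 10 or more in at least 3 libraries. Tests were two-sided, and Benjamini-Hochberg adjustment covered 14668 genes at a threshold of 0.05. The procedure was first tested on simulated data. In each library 100% of values were whole multiples of 1 read, and these recovered reads were used for edgeR 4.0.16 and DESeq2 1.42.0, as alternatives. The 10 genes and the lists were chosen with earlier results of these data known. Named from each list were up to 3 called genes with the smallest adjusted p, plus Fosb, Jund, Egr2, Nr4a1, Ier2, Dusp1, Myc, Srf, Atf4, Map3k4, Nab2, Cdkn1a and Hdac4. Likeness was computed for genes with a mean of at least 50, without predicted genes and pseudogenes. SENP7 siRNA replicates 1 and 2 differed by a chi-square per gene of 1.7, other replicate pairs by 7.26 to 36.9, and both were kept. Nothing in the labels says that libraries came from separate cultures beyond the words biological replicates, so p-values measure the spread between these libraries.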

Additional observations from a re-analysis of the deposited data

How the results depend on the processing

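Each result was computed under 15 alternative settings (the replicate block, edgeR with TMM, DESeq2, quantile normalization, other pseudocounts and filters, a stricter threshold, and each library left out). Of the 10 genes described 4 to 6 were called (5 in the reported analysis), and Fos, Fosl1, Jun and Gadd45a kept theirs in every setting. Over all genes the 3062 calls became 1398 at an adjusted p below 0.01 and 1619 to 4702 with 1 library left out. They were 1660 without SENP7 siRNA replicate 1, 1619 without SENP7 siRNA replicate 2, 1633 without control replicate 2 and 4702 without control replicate 3, and the cause was not tested. With 1 library left out, the log2 fold change of Egr2 (0.12) ranged from -0.04 (without control replicate 3) to 0.27 (without control replicate 1). That of Dusp1 (0.0) ranged from -0.04 (without control replicate 2) to 0.06 (without control replicate 3), and was -0.03 without SENP7 siRNA replicate 3 and -0.02 without control replicate 1. With the replicate block 4175 genes were called, among them 6 of the 10, Fosl2 being the addition (log2 fold change -0.2, adjusted p = 0.0295, limma). Deviations of same-numbered libraries correlated by 0.13, 0.062 and 0.25 for numbers 1, 2 and 3. Control replicate 1 correlated slightly more with SENP7 siRNA replicate 2 (0.14), while control replicates 2 and 3 correlated best with their own number. These values do not decide whether the numbers mark pairs, and the reported analysis did not take them as pairs. Quantile normalization and TMM moved the median of all genes by 0.005 and 0.006 on the log2 scale. Depth limits the precision of genes with few reads.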
